A study of Mus musculus with 35 samples.

Results

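The comparison is between 2 forms of the leukemia fusion protein NUP98-HOXA9 (NHA9) that carry different numbers of phenylalanine-glycine (FG) motifs. Its members are the 10 RNA-seq libraries whose labels name the construct G-NHX9-midi (called G-NHA9Midi below, 5 libraries) or G-NHX9-8FA (G-NHA9-8FA, 5 libraries), out of 35 libraries and 7 conditions in the series. They were chosen by their labels, though with earlier results of these data known. Of 49671 genes, the 17166 that passed a filter on low counts were tested. G-NHA9Midi keeps a C-terminal stretch of the NUP98 portion with 21 FG motifs and lacks the GLEBS domain, whereas G-NHA9-8FA has the whole NUP98 portion with 8 phenylalanines changed to alanine, which leaves 30. The constructs therefore differ in length and domain content as well as in FG valence, and these cannot be told apart here. Both carry the HOXA9 homeodomain and an mEGFP tag, were delivered by lentivirus to lin- HSPCs (bone marrow cells depleted of cells with markers of mature blood lineages) of C57Bl/6 mice of both sexes aged 8 weeks, and were read after the transduced cells had been sorted by fluorescence and kept for 1 week in semisolid Methocult medium with 10 ng/mL of GM-CSF. Of the groups set beside them below, 3 empty vector and 4 G-NHA9 libraries came from mice of the same age, while empty vector libraries 4 and 5 are given as 9 and 10 weeks and G-NHA9 library 1 as 11 weeks. Expression came from a viral vector on top of the cells' own *Nup98* and *Hoxa9*. The labels do not say whether the 5 libraries of a condition came from separate mice, and the methods describe transduction in triplicate. The p-values therefore set differences against the spread between libraries, estimated from all 35, which may not be the spread between mice.

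Hox genes encode DNA-binding homeodomain proteins that specify position along the body axis and, in blood, are active in stem and progenitor cells and silenced as cells mature. HOX proteins bind DNA with partners of the TALE class, such as the PBX, MEIS and PKNOX (PREP) proteins. NUP98 fusions join the FG repeats of a nuclear pore protein, which form condensates and recruit transcriptional regulators, to a DNA-binding or chromatin-binding partner, and sustained *HOXA* and *HOXB* expression with blocked myeloid maturation is known for leukemias that carry them.

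Total counts were between 32201151 and 58576267 per library, with 10.3% to 12.8% of them on the 10 genes with most reads. Levels are given in CPM, the reads of a gene scaled to a fixed library total, with that total corrected by edgeR's TMM factors, and differences as the log2 of G-NHA9Midi over G-NHA9-8FA with its standard error (SE). Where no read was counted, a level of up to 3 reads (0.0512 to 0.0932 CPM across the libraries) was still possible from counting error alone. On the first principal component of the 500 most variable genes (38.2% of the variance), the G-NHA9Midi libraries lay at 6.1 to 21.5 and the G-NHA9-8FA libraries at -17.8 to -7.8. On the second (23.9%), library 1 of each condition stood apart, at 15.9 for G-NHA9Midi and 26.5 for G-NHA9-8FA, while the others lay between -11 and 2.3. After 1 week the cultures held RNA typical of maturing myeloid cells: *Lyz2*, the lysozyme of macrophages and neutrophils, was at 8274 ± 3065 CPM in G-NHA9Midi and 14890.2 ± 4679.8 CPM in G-NHA9-8FA cells (SD, n = 5), whereas the 16 surface markers of stem and progenitor cells tested summed to 1698 to 2402 and 2154 to 2881 CPM. In bulk RNA, fewer cells of a type and less RNA per cell cannot be told apart.

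Of 17166 genes tested, 729 (4.25%) differed (quasi-likelihood F test of edgeR, Benjamini-Hochberg adjusted p under 0.05). Lower genes prevailed, with 470 (2.74% of all genes) lower and 259 (1.51%) higher in G-NHA9Midi cells. The median absolute log2 fold change of the called genes was 0.83, and 290 of them changed by at least 1 on the log2 scale, 200 lower and 90 higher. In 902 genes (5.25%) the 2 conditions did not overlap, and 419 of these were among the 729. The split of calls depended on how the libraries were scaled: with library sizes alone, 992 genes were called and 59.1% of them were higher, against 35.5% with TMM. The number of calls also depended on single libraries and was 379 without G-NHA9Midi library 2, 400 without G-NHA9Midi library 3 and 455 without G-NHA9-8FA library 2. Without library 1 of both conditions, it was 466.

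**Figure D1:**
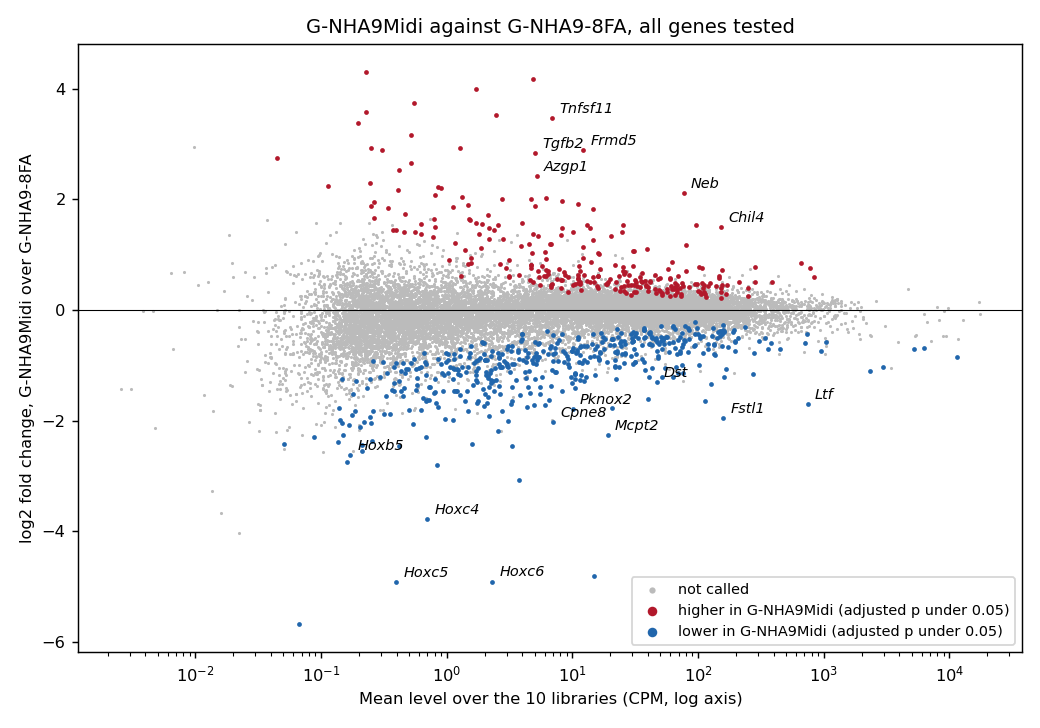
Each point is 1 of the 17166 genes tested, with its mean level over the 10 libraries (CPM, log axis) across and its log2 fold change, G-NHA9Midi over G-NHA9-8FA, up. The 259 genes higher in G-NHA9Midi cells (red) and 470 lower (blue) at an adjusted p under 0.05 are colored, and *Hoxc5*, *Hoxc6* and *Hoxc4* lie near the bottom at low levels.

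The genes of the *Hoxc* cluster stood furthest apart among the Hox genes. *Hoxc6*, *Hoxc4* and *Hoxc5*, anterior and middle members of the cluster on chromosome 15, were almost absent from G-NHA9Midi cells and present at low levels in every library of G-NHA9-8FA cells. Of the 9 *Hoxc* genes counted, 4 passed the filter on low counts, and 3 of these were called lower, against 2.74% of all genes. The filter took in all 7 conditions. At their levels in G-NHA9Midi cells, *Hoxc6*, *Hoxc4* and *Hoxc5* passed it through other conditions, G-NHA9-8FA among them. The share of 3 in 4 is therefore a description and no support for the difference. *Hoxc6* (ENSMUSG00000001661.5, GRCm38 chromosome 15, 102998257 to 103011881, + strand) was at 0.0399, 0.120, 0.266, 0.107 and 0.185 CPM in the G-NHA9Midi libraries and at 2.91, 4.41, 4.18, 3.18 and 7.67 CPM in the G-NHA9-8FA libraries. These were 2, 4, 13, 4 and 9 reads against 125, 241, 194, 124 and 251. No library of one condition came near the other, and the difference was 30.04-fold (log2 fold change, -4.91 ± 0.46 (SE), edgeR adjusted p = 1.5e-08).

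*Hoxc4* (ENSMUSG00000075394.4, GRCm38 chromosome 15, 103018934 to 103036852, + strand) was at 0.0598, 0.0900, 0.123, 0.107 and 0.0824 CPM in the G-NHA9Midi libraries and at 1.1, 1.5, 1.29, 0.822 and 1.77 CPM in the G-NHA9-8FA libraries. Again the conditions did not overlap, with 3 to 6 reads per G-NHA9Midi library and 32 to 82 per G-NHA9-8FA library (log2 fold change, -3.78 ± 0.39 (SE), edgeR adjusted p = 6.9e-08). *Hoxc5* (ENSMUSG00000022485.3, GRCm38 chromosome 15, 102967443 to 103017429, + strand) had 3, 0, 2, 0 and 0 reads in the G-NHA9Midi libraries and 28, 46, 34, 23 and 34 in the G-NHA9-8FA libraries. With so few reads the fitted value depends on the prior count of the model, and the ratio of the summed reads, scaled for depth, was 33.4 in favor of G-NHA9-8FA (95% exact interval, 14 to 104, counting error only; edgeR adjusted p = 7.8e-07). The annotated span of *Hoxc5* includes *Hoxc6* and *Hoxc8* on the same strand, so reads of these genes were open to being counted with one another. The fourth gene tested, *Hoxc8*, had 3 to 7 reads per G-NHA9Midi library and 2 to 17 per G-NHA9-8FA library and was not called (log2 fold change, -0.45 ± 0.56 (SE), edgeR adjusted p = 0.78). The 3 calls held in each of the 10 fits that left out 1 library.

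Beside the other conditions of the series, the summed level of the 4 *Hoxc* genes was 0.132 ± 0.119 CPM with the empty vector, 0.384 ± 0.119 CPM with G-NHA9Midi, 6.71 ± 2.32 CPM with G-NHA9-8FA and 43.3 ± 6.28 CPM with G-NHA9, the fusion with all its FG motifs (SD, n = 5 each). The means of the empty vector and G-NHA9Midi were both under 1 CPM, and G-NHA9-8FA lay above both and below G-NHA9; these levels are given as a description, with no test.

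In the *Hoxb* cluster 2 of the 8 genes tested were lower and none was higher, against 2.74% and 1.51% of all genes. The filter on low counts took in all 7 conditions, so this share is a description. *Hoxb6*, *Hoxb7*, *Hoxb8* and *Hoxb9*, none of them called, had 3, 6, 18 and 20 reads over the G-NHA9Midi libraries. Over the G-NHA9-8FA libraries they had 20, 16, 11 and 7, and with G-NHA9 they were at 5.07, 2.46, 3.64 and 0.341 CPM. *Hoxb5* (ENSMUSG00000038700.4, GRCm38 chromosome 11, 96303336 to 96306121, + strand) had 2, 2, 4, 0 and 2 reads in the G-NHA9Midi libraries and 10, 17, 8, 19 and 9 in the G-NHA9-8FA libraries. The conditions did not overlap in CPM, and the ratio of summed reads was 6.38 (95% exact interval, 3.25 to 13.9, counting error only; edgeR adjusted p = 0.0059). *Hoxb5os* (ENSMUSG00000085645.1, GRCm38 chromosome 11, 96291024 to 96306910, - strand), a noncoding transcript antisense to *Hoxb5* and *Hoxb6*, was at 3.63, 3.51, 3.89, 4.6 and 3.01 CPM in the G-NHA9Midi libraries and at 9.69, 8.29, 8.43, 11.1 and 10.8 CPM in the G-NHA9-8FA libraries. All G-NHA9Midi libraries were lower (log2 fold change, -1.37 ± 0.23 (SE), edgeR adjusted p = 0.00037). The methods name a stranded library kit, but the sources used do not say whether counting used the strand. Whether reads of the antisense and sense genes were kept apart is therefore not known here.

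*Hoxb3* (ENSMUSG00000048763.11, GRCm38 chromosome 11, 96323326 to 96347930, + strand) was at 2.41, 3.09, 3.03, 2.38 and 2.95 CPM in the G-NHA9Midi libraries and at 3.8, 4.63, 4.9, 3.7 and 5.78 CPM in the G-NHA9-8FA libraries. The conditions did not overlap (log2 fold change, -0.72 ± 0.20 (SE), edgeR adjusted p = 0.037), but the call was lost in 8 of the 10 fits that left out 1 library. *Hoxb4* differed by -0.34 ± 0.18 and was not called (edgeR adjusted p = 0.34).

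None of the 9 *Hoxa* genes tested was called by edgeR or by DESeq2, and 1 had an unadjusted p under 0.05. Their median log2 fold change was -0.49 against -0.02 over all genes tested, with 8 point estimates lower and 1 higher. *Hoxa9* was at 30.6, 44.4, 37.8, 25.5 and 34.5 CPM in the G-NHA9Midi libraries and at 30.1, 32.7, 36.1, 28.5 and 41.5 CPM in the G-NHA9-8FA libraries. The ranges overlapped almost wholly (log2 fold change, 0.03 ± 0.31 (SE), edgeR adjusted p = 0.98, 95% interval -0.59 to 0.66). Reads of the HOXA9 portion that the constructs carry may be counted on *Hoxa9* and reads of the NUP98 portion on *Nup98*, so the value does not separate the cells' own transcript from the construct's. *Nup98*, which encodes the nuclear pore protein, was at 140.0 to 186 CPM in G-NHA9Midi cells and 146 to 198 CPM in G-NHA9-8FA cells (log2 fold change, 0.07 ± 0.12 (SE), edgeR adjusted p = 0.86). No gene of the *Hoxd* cluster passed the filter on low counts.

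**Figure D2:**
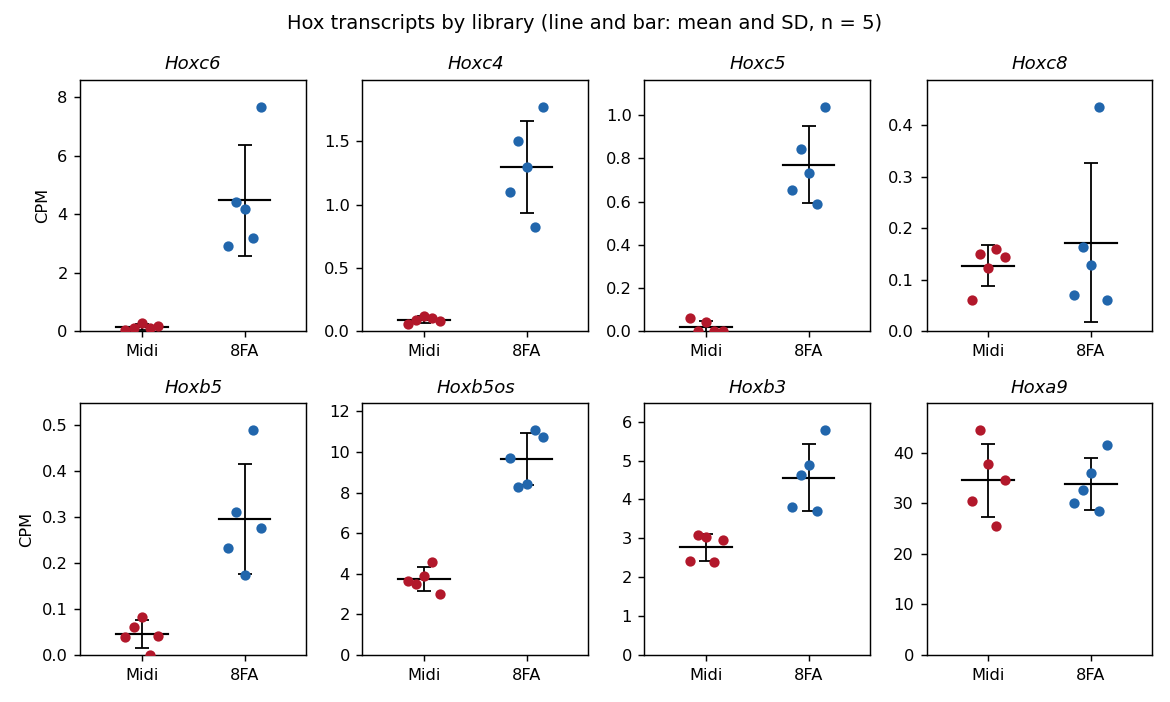
Each point is the level (CPM) of 1 Hox transcript in 1 library of G-NHA9Midi (Midi, red) or G-NHA9-8FA (8FA, blue) cells, and the line and bar give the mean and SD of 5 libraries. *Hoxc6*, *Hoxc4*, *Hoxc5*, *Hoxb5*, *Hoxb5os* and *Hoxb3* do not overlap between the conditions, and *Hoxc8* and *Hoxa9* do.

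Of the 10 genes tested for TALE homeodomain partners of HOX proteins, 2 fell and 1 rose, against 2.74% and 1.51% of all genes. *Pknox2* (ENSMUSG00000035934.16, GRCm38 chromosome 9, 36890982 to 37147407, - strand), a PREP family gene, was at 2.49, 4.05, 3.25, 5.11 and 7.62 CPM in the G-NHA9Midi libraries and at 7.97, 17.6, 10.1, 19.7 and 22.7 CPM in the G-NHA9-8FA libraries. The highest G-NHA9Midi library was just under the lowest G-NHA9-8FA library (log2 fold change, -1.79 ± 0.39 (SE), edgeR adjusted p = 0.0048). Its relative *Pknox1* moved the other way, from 28.8 ± 2.04 CPM in G-NHA9-8FA to 41.3 ± 3.87 CPM in G-NHA9Midi cells (SD, n = 5), and again without overlap (log2 fold change, 0.52 ± 0.10 (SE), edgeR adjusted p = 0.0022). *Meis3* was lower (log2 fold change, -0.90 ± 0.21 (SE), edgeR adjusted p = 0.01), whereas *Meis1*, the MEIS gene most tied to HOXA9 in leukemia, was at 8.49 to 14.9 CPM in G-NHA9Midi cells and 8.4 to 15.5 CPM in G-NHA9-8FA cells and not called (log2 fold change, 0.06 ± 0.18, edgeR adjusted p = 0.93). *Pbx3* was not called either (log2 fold change, -0.14 ± 0.14, edgeR adjusted p = 0.7). The 3 calls held in each of the 10 fits that left out 1 library.

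The 12 genes that rose most, among genes called with a mean of at least 5 CPM and no overlap between conditions, were led by *Tnfsf11*, *Frmd5* and *Tgfb2*. *Tnfsf11* (ENSMUSG00000022015.8, GRCm38 chromosome 14, 78277445 to 78308043, - strand), which encodes RANKL, the cytokine that drives osteoclast formation, was at 11.98, 20.04, 12.8, 9.36 and 9.29 CPM in the G-NHA9Midi libraries and at 0.722, 1.46, 1.16, 1.39 and 0.947 CPM in the G-NHA9-8FA libraries. Every G-NHA9Midi library was well above every G-NHA9-8FA library, and the fold was 11.1 (log2 fold change, 3.47 ± 0.34 (SE), edgeR adjusted p = 4.3e-08). With the empty vector it was at 0.0808 ± 0.0494 CPM and with G-NHA9 at 0.927 ± 0.265 CPM (SD, n = 5), so G-NHA9-8FA was close to G-NHA9 and G-NHA9Midi was above both.

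*Frmd5* (ENSMUSG00000027238.17, GRCm38 chromosome 2, 121545529 to 121807087, - strand), a FERM domain protein of cell junctions, was at 17.7, 32.3, 22.1, 15.8 and 19.2 CPM in the G-NHA9Midi libraries and at 1.37, 4.01, 2.55, 2.49 and 4.03 CPM in the G-NHA9-8FA libraries. The conditions did not overlap (log2 fold change, 2.89 ± 0.32 (SE), edgeR adjusted p = 3.5e-07), and the level was 0.313 ± 0.0628 CPM with the empty vector and 5.19 ± 1.73 CPM with G-NHA9. *Tgfb2* (ENSMUSG00000039239.14, GRCm38 chromosome 1, 186622792 to 186705989, - strand), a ligand of the TGF-beta family, was at 6.24, 13.2, 10.2, 6.12 and 8.76 CPM in the G-NHA9Midi libraries and at 1.0, 1.28, 0.971, 1.77 and 1.19 CPM in the G-NHA9-8FA libraries. Again all G-NHA9Midi libraries were higher (log2 fold change, 2.84 ± 0.33 (SE), edgeR adjusted p = 8.9e-07), beside 0.0387 ± 0.0256 CPM with the empty vector and 0.508 ± 0.358 CPM with G-NHA9. In these 3 genes the mean of G-NHA9Midi was above that of the other 3 conditions named, which is a description with no test.

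*Neb* (ENSMUSG00000026950.17, GRCm38 chromosome 2, 52136647 to 52378474, - strand), the giant thin-filament protein nebulin of muscle, was the most abundant of the 5 that rose by over 2 on the log2 scale. It was at 139.7, 142, 137, 91.01 and 113 CPM in the G-NHA9Midi libraries and at 27.1, 31.6, 32.03, 17.8 and 35.2 CPM in the G-NHA9-8FA libraries, with no overlap (log2 fold change, 2.11 ± 0.34 (SE), edgeR adjusted p = 0.0002). *Azgp1*, a secreted lipid-mobilizing glycoprotein, was at 4.04 to 16.1 CPM in G-NHA9Midi cells and 0.839 to 3.64 CPM in G-NHA9-8FA cells (log2 fold change, 2.42 ± 0.36 (SE), edgeR adjusted p = 7.3e-05), and at 0.00459 ± 0.0103 CPM with the empty vector and 0.0422 ± 0.0440 CPM with G-NHA9, close to the limit of 0 counts in both.

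*Chil4* (ENSMUSG00000063779.6, GRCm38 chromosome 3, 106201490 to 106219507, - strand), a secreted chitinase-like protein of myeloid cells, was at 209, 198, 193, 315 and 213 CPM in the G-NHA9Midi libraries and at 39.2, 112, 86.8, 50.2 and 112 CPM in the G-NHA9-8FA libraries. It rose (log2 fold change, 1.5 ± 0.35 (SE), edgeR adjusted p = 0.0088) while its near relative *Chil3* fell, as given with the neutrophil genes, and how reads that fit both genes were counted was not given in the sources used here. *Ccl24*, the eosinophil attractant eotaxin-2, was at 3.3 to 12.05 CPM in G-NHA9Midi cells and 1.44 to 2.69 CPM in G-NHA9-8FA cells (log2 fold change, 1.89 ± 0.37 (SE), edgeR adjusted p = 0.0015). With the empty vector it was at 6.66 ± 2.36 CPM and with G-NHA9 at 9.99 ± 2.37 CPM (SD, n = 5), so G-NHA9-8FA had the lowest mean of the 4 conditions. *Tcrg-C1*, a constant segment of the T cell receptor gamma chain, was at 34.9 to 42.8 CPM in G-NHA9Midi cells and 7.9 to 19.03 CPM in G-NHA9-8FA cells (log2 fold change, 1.54 ± 0.25 (SE), edgeR adjusted p = 0.00019). The other 4 of the 12, with their log2 fold changes, were *Ms4a8a* (1.97), a membrane protein of the MS4A family, *Crisp3* (1.91), a secreted cysteine-rich protein, *Mgam* (1.82), the starch-digesting enzyme maltase-glucoamylase, and *Csgalnact1* (1.54), which starts chondroitin sulfate chains. *Crisp3* was at 17.5 ± 4.98 CPM with G-NHA9Midi and 40.5 ± 8.07 CPM with G-NHA9 (SD, n = 5). Among the 12, *Ccl24* and *Crisp3* had a higher mean with G-NHA9. In the others the G-NHA9Midi mean was above those of G-NHA9-8FA, G-NHA9 and the empty vector, with no test.

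Among the 12 genes that fell most, *Mcpt2* and *Cpne8* led. *Mcpt2* (ENSMUSG00000022226.5, GRCm38 chromosome 14, 56042041 to 56044642, + strand), a chymase of mast cell granules, was at 3.07, 8.94, 3.44, 7.44 and 10.01 CPM in the G-NHA9Midi libraries and at 20.02, 31.1, 28.6, 33.6 and 44.2 CPM in the G-NHA9-8FA libraries. The conditions did not overlap, and the level in G-NHA9-8FA cells was 4.8 times that in G-NHA9Midi cells (log2 fold change, -2.26 ± 0.30 (SE), edgeR adjusted p = 1.2e-05). It was 145 ± 20.9 CPM with the empty vector and 15.4 ± 6.8 CPM with G-NHA9. *Cpne8* (ENSMUSG00000052560.15, GRCm38 chromosome 15, 90487482 to 90679432, - strand), a calcium-dependent membrane-binding copine, was at 3.13, 2.07, 1.98, 4.23 and 2.43 CPM in the G-NHA9Midi libraries and at 13.4, 11.7, 11.4, 9.58 and 10.3 CPM in the G-NHA9-8FA libraries. Its libraries were tight within each condition and clearly apart between them (log2 fold change, -2.03 ± 0.17 (SE), edgeR adjusted p = 5.2e-09). With the empty vector and with G-NHA9 it was at 10.3 ± 1.45 and 10.3 ± 2.09 CPM, both close to G-NHA9-8FA, so among these 4 conditions G-NHA9Midi had the lowest mean.

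*Fstl1* (ENSMUSG00000022816.11, GRCm38 chromosome 16, 37776873 to 37836514, + strand), a secreted follistatin-like glycoprotein of stromal and mesenchymal cells, was at 55.4, 22.95, 41.8, 131 and 75.8 CPM in the G-NHA9Midi libraries and at 201, 394, 315, 198 and 154 CPM in the G-NHA9-8FA libraries. The ranges came close but did not overlap (log2 fold change, -1.95 ± 0.35 (SE), edgeR adjusted p = 0.00063). *Dst* (ENSMUSG00000026131.18, GRCm38 chromosome 1, 33908225 to 34308661, + strand), the cytoskeletal linker dystonin, was at 36.8, 18.8, 26.2, 24.5 and 28.6 CPM in the G-NHA9Midi libraries and at 77.5, 67.3, 66.6, 50.4 and 71.3 CPM in the G-NHA9-8FA libraries. It too was lower in each G-NHA9Midi library (log2 fold change, -1.30 ± 0.14 (SE), edgeR adjusted p = 2.2e-07). *Siglec1*, a sialic acid receptor of macrophages, was at 2.37 to 3.61 CPM in G-NHA9Midi cells and 6.43 to 12.5 CPM in G-NHA9-8FA cells (log2 fold change, -1.71 ± 0.42 (SE), edgeR adjusted p = 0.012). *Serpinb10* was at 16.8 to 23.6 CPM in G-NHA9Midi cells and 48.7 to 65.8 CPM in G-NHA9-8FA cells (log2 fold change, -1.60 ± 0.36 (SE), edgeR adjusted p = 0.0058), and it overlaps *Serpinb2* on the same strand and is annotated as a polymorphic pseudogene. *Ltf*, *Pknox2* and *Hoxb5os* are described with their groups, and the remaining 3, with their log2 fold changes, were *Cyp4a12a* (-1.62), a fatty acid hydroxylase, *Gstm2* (-1.46), a glutathione transferase with close relatives, and *Tanc1* (-1.31), a scaffold protein of synapses. Each of the 12 genes that rose most and of the 12 that fell most stayed past the threshold in all 10 fits that left out 1 library. The rule that chose them, by call, fold and lack of overlap, favored this, so it is not separate support.

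**Figure D3:**
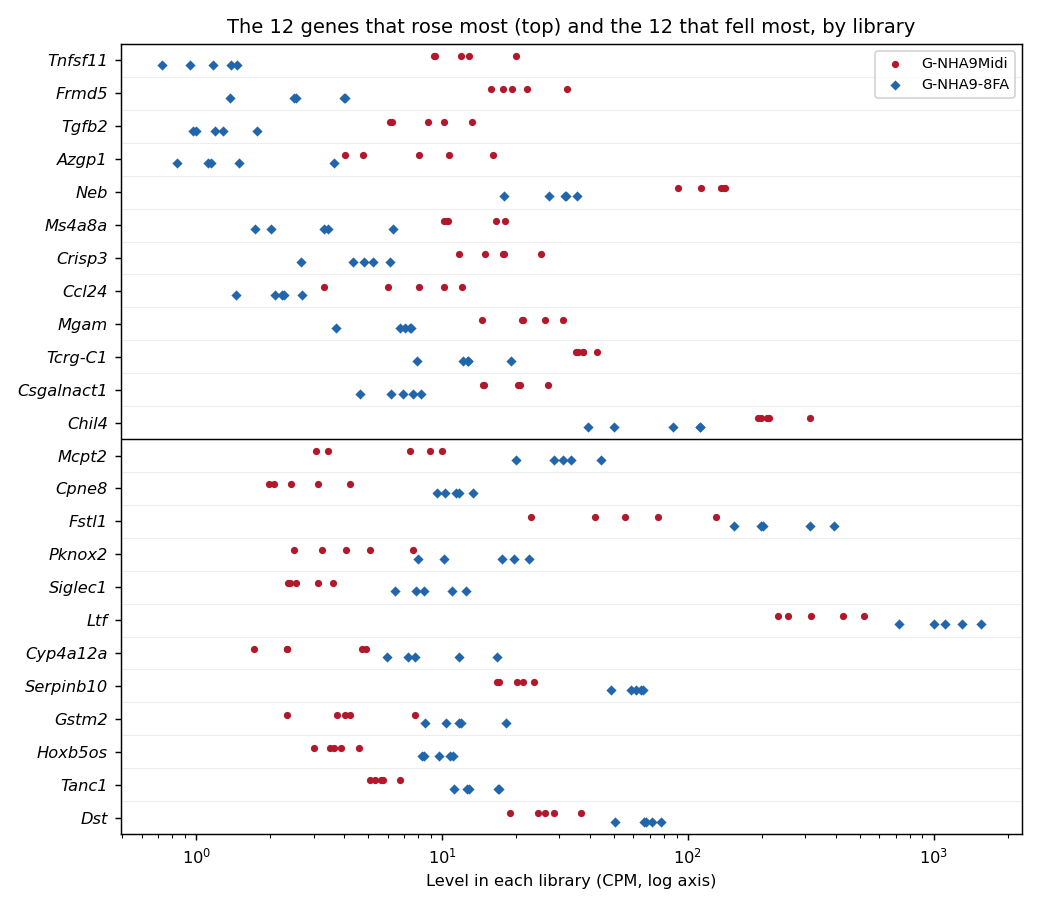
Each point is the level (CPM, log axis) of a gene in 1 library of G-NHA9Midi (red circles) or G-NHA9-8FA (blue diamonds) cells, for the 12 genes that rose most (above the line) and the 12 that fell most. No gene overlaps between the conditions, which the rule for choosing them required, and *Tnfsf11* has the widest gap of those that rose.

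Promoters of 4 genes are shown because they lie upstream of the called *Hoxc* gene with a RefSeq entry (*Hoxc4*), of the genes that lead the rise (*Tnfsf11*) and, among genes with an entry, the fall (*Cpne8*), and of the most abundant gene among the 12 that fell (*Ltf*). Each run is the 250 bases before the gene's start in RefSeq (GRCm38.p6), 5′ to 3′ on the gene's strand, and capitals mark the letters AGGTCA, an element bound by many nuclear receptors, on either strand. They come from chr15:103034145-103034394 (+ strand), chr14:78308044-78308293 (- strand), chr15:90679389-90679638 (- strand) and chr9:111019042-111019291 (+ strand). The *Hoxc4*, *Cpne8* and *Ltf* starts in RefSeq are inside the longer GENCODE spans of these genes given in the text. The *Hoxc4* run therefore lies within that span, and the *Cpne8* and *Ltf* runs reach into theirs at the 3′ end.
Hoxc4: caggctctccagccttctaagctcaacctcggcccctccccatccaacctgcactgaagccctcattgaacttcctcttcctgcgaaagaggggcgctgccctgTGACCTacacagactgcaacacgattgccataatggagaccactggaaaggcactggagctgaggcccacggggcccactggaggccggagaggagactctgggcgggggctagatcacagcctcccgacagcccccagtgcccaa
Tnfsf11: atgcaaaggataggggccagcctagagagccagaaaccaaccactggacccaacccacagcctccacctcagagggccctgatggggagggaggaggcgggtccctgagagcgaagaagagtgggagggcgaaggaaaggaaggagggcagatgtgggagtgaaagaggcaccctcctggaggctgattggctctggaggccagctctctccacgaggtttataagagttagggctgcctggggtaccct
Cpne8: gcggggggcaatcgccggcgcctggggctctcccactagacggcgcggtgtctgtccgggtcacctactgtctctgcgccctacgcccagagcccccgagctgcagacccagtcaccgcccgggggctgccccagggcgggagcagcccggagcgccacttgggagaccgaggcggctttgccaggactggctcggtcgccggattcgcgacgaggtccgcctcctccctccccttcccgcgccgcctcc
Ltf: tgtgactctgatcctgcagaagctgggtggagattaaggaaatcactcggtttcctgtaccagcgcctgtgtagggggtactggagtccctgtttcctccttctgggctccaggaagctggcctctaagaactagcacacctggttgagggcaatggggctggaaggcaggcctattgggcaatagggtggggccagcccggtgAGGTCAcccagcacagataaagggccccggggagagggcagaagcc

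Of the 45 genes made up of these 24 and the 21 Hox genes tested, 25 had an entry. TGATTTAC and TGATTTAT, forms of the site bound by PBX and HOXA9 together, were searched on both strands and found in none of the 25 windows, and in 0.496% and 0.837% of all 32851 windows of that length. TGACAG, bound by MEIS and PKNOX proteins, was found in 2 (*Hoxa2* and *Hoxa3*), and in 15.9% of all windows. AGGTCA was found in 6 (*Frmd5*, *Hoxb4*, *Hoxc4*, *Ltf*, *Ms4a8a* and *Tanc1*), and in 14% of all windows. A match is a match of letters only.

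Genes of late neutrophils, the proteins of secondary and tertiary granules and receptors that appear as granulocytes mature, were lower in G-NHA9Midi cells in 8 of the 16 tested and higher in none, against 2.74% of all genes lower. Their median log2 fold change was -0.82. *Ltf* (ENSMUSG00000032496.7, GRCm38 chromosome 9, 111019271 to 111042767, + strand), the iron-binding granule protein lactoferrin, was at 234, 318, 255, 426 and 522 CPM in the G-NHA9Midi libraries and at 720.0, 1564, 1115, 1007 and 1300.1 CPM in the G-NHA9-8FA libraries. No library of one condition reached the other (log2 fold change, -1.70 ± 0.24 (SE), edgeR adjusted p = 3.4e-05), and the empty vector and G-NHA9 libraries lay at 807 ± 199.7 and 689 ± 128 CPM. *Ngp*, neutrophilic granule protein, was at 685, 1976, 1133, 1312 and 2263 CPM in the G-NHA9Midi libraries and at 1670.4, 3302, 2227, 3966 and 4658 CPM in the G-NHA9-8FA libraries. The ranges overlapped, with G-NHA9Midi libraries 2 and 5 above the lowest G-NHA9-8FA library (log2 fold change, -1.10 ± 0.29 (SE), edgeR adjusted p = 0.022).

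*Camp*, the antimicrobial peptide cathelicidin, was at 14.6 to 111 CPM in G-NHA9Midi cells and 62.6 to 251 CPM in G-NHA9-8FA cells (log2 fold change, -1.64 ± 0.40 (SE), edgeR adjusted p = 0.013). *Lcn2*, the siderophore-binding lipocalin, was at 277 to 422 CPM in G-NHA9Midi cells and 449.8 to 666 CPM in G-NHA9-8FA cells, with no overlap (log2 fold change, -0.71 ± 0.18 (SE), edgeR adjusted p = 0.013). The other members called were *Fpr2* (-1.13) and *Fpr1* (-0.92), receptors for formylated peptides, *Ly6g* (-1.13), the surface marker of neutrophils, and *Chil3* (-1.02), which has the near relative *Chil4*. With the empty vector and G-NHA9, *Ngp* was at 1279 and 1955 CPM, *Lcn2* at 331 and 207 CPM and *Ly6g* at 25.6 and 43.7 CPM. Their G-NHA9Midi means (1474, 337 and 43.0 CPM) were not below both, and G-NHA9-8FA was the highest of the 4 conditions. For *Ltf*, *Camp*, *Fpr1*, *Fpr2* and *Chil3* the G-NHA9Midi mean was below both, which is a description with no test. The summed level of the list was 12190 to 24770 CPM in G-NHA9Midi cells and 20820 to 38950 CPM in G-NHA9-8FA cells, so the sums overlapped. The count depended on single libraries: it was 1 without G-NHA9Midi library 3, 3 without G-NHA9Midi library 2, 3 without G-NHA9-8FA library 2, and 4 without G-NHA9Midi library 1 or G-NHA9-8FA library 4, all of them lower. Without library 1 of both conditions it was 6. *Ltf* stayed past the threshold in all 10 fits that left out 1 library.

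The list of early (primary) granule genes was mostly not called, with 1 lower of 8 tested, against 2.74% of all genes. That gene was *Igsf6*, an immunoglobulin superfamily receptor of myeloid cells and not a granule protein (log2 fold change, -0.51 ± 0.15 (SE), edgeR adjusted p = 0.039). Its call was lost in each of the 10 fits that left out 1 library. *Elane*, neutrophil elastase, was at 35.3 to 218 CPM in G-NHA9Midi cells and 119.8 to 517 CPM in G-NHA9-8FA cells and not called (log2 fold change, -1.14 ± 0.43 (SE), edgeR adjusted p = 0.14). Of 7 genes of the phagocyte NADPH oxidase, which makes superoxide, 2 were lower, against 2.74% of all genes. They were *Cybb* (-0.43), the catalytic subunit, and *Hvcn1* (-0.40), the proton channel that sustains it, with calls lost in 6 and 3 of those fits.

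Of 19 macrophage and monocyte genes tested, 4 were lower and 2 higher, against 2.74% and 1.51% of all genes. *Marco* (ENSMUSG00000026390.7, GRCm38 chromosome 1, 120474538 to 120505024, - strand), a scavenger receptor of macrophages, was at 1.99, 1.95, 1.74, 3.13 and 2.72 CPM in the G-NHA9Midi libraries and at 6.29, 6.33, 7.83, 8.86 and 8.56 CPM in the G-NHA9-8FA libraries. The conditions were well separated (log2 fold change, -1.71 ± 0.31 (SE), edgeR adjusted p = 0.00068). *Mertk*, a receptor for the uptake of dead cells, was also lower without overlap (log2 fold change, -0.84 ± 0.19 (SE), edgeR adjusted p = 0.0074). *Lyz2* was at 4694 to 13079 CPM in G-NHA9Midi cells and 8643 to 20219.8 CPM in G-NHA9-8FA cells (log2 fold change, -0.85 ± 0.24 (SE), edgeR adjusted p = 0.033), and its near relative *Lyz1* was lower too (-0.97). *Ccr2*, the chemokine receptor of inflammatory monocytes, went the other way, from 579.8 ± 132 to 979 ± 228 CPM (SD, n = 5; log2 fold change, 0.76 ± 0.23 (SE), edgeR adjusted p = 0.049). *Apoe*, a lipid carrier of macrophages, was at 3.12 to 4.51 CPM in G-NHA9Midi cells and 1.4 to 3.73 CPM in G-NHA9-8FA cells and just past the threshold (log2 fold change, 0.76 ± 0.23 (SE), edgeR adjusted p = 0.05). The list summed to 11890 to 23280 CPM in G-NHA9Midi and 15460 to 31860 CPM in G-NHA9-8FA cells. Of the 6 calls, 2 were made without G-NHA9Midi library 2 or 3, 3 without G-NHA9Midi library 1 or G-NHA9-8FA library 1, 2 or 3, and 2 without library 1 of both conditions. *Marco* and *Mertk* kept their calls in all 10 fits that left out 1 library, whereas the 2 higher genes lost theirs in 7 (*Ccr2*) and 9 (*Apoe*), *Lyz2* in 7 and *Lyz1* in 4.

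Eosinophil genes divided, with 3 of 10 lower and 1 higher, beside the same shares of all genes. *Epx*, eosinophil peroxidase, was at 4.27, 10.2, 4.11, 6.12 and 22.5 CPM in the G-NHA9Midi libraries and at 7.67, 22.01, 47.6, 14.8 and 68.7 CPM in the G-NHA9-8FA libraries. The ranges overlapped and the spread within each condition was wide (log2 fold change, -1.76 ± 0.44 (SE), edgeR adjusted p = 0.014). *Ear2* and *Ear6*, eosinophil-associated ribonucleases that share much of their sequence, were lower (-1.20 and -1.41). *Ccr3*, the eotaxin receptor, was at 2.29, 2.1, 1.7, 1.47 and 1.17 CPM in the G-NHA9Midi libraries and at 0.466, 0.402, 0.604, 0.385 and 0.519 CPM in the G-NHA9-8FA libraries, which was higher in every G-NHA9Midi library (log2 fold change, 1.87 ± 0.31 (SE), edgeR adjusted p = 0.00029). The count was 2 without G-NHA9Midi library 3, G-NHA9-8FA library 3 or G-NHA9-8FA library 5. *Ccr3* and *Ear2* kept their calls in all 10 fits that left out 1 library, whereas *Ear6* lost its call in 8 and *Epx* in 3. The list summed to 44.7 to 129.9 CPM in G-NHA9Midi and 78.0 to 300.1 CPM in G-NHA9-8FA cells, and *Epx* alone was at 430.3 ± 109 CPM with the empty vector (SD, n = 5).

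Of 18 mast cell and basophil genes, only *Mcpt2* was called by edgeR, 5.56% against 4.25% of all genes, and 3 genes by DESeq2. The list was at 659.7 to 1227 CPM in G-NHA9Midi and 854.8 to 1275 CPM in G-NHA9-8FA cells. The *Mcpt2* relatives *Mcpt4* (-1.57, edgeR adjusted p = 0.052), *Mcpt1* (-2.19, edgeR adjusted p = 0.072) and *Cma1* (-0.91, edgeR adjusted p = 0.11), also chymases, were not called. For *Mcpt1* the conditions did not overlap. Point estimates were lower for 16 of the 18 genes, with a median of -0.35. Of 14 megakaryocyte and platelet genes, *Pf4*, platelet factor 4, was at 21.5 to 61.4 CPM in G-NHA9Midi cells and 42.2 to 133 CPM in G-NHA9-8FA cells (log2 fold change, -1.21 ± 0.36 (SE), edgeR adjusted p = 0.048) and *Vwf*, von Willebrand factor, at 55.00 to 125 CPM in G-NHA9Midi cells and 105 to 193 CPM in G-NHA9-8FA cells (log2 fold change, -0.70 ± 0.20 (SE), edgeR adjusted p = 0.043), and both were lower. Neither was called when G-NHA9Midi library 2 or 3 or G-NHA9-8FA library 2, 3 or 5 was left out, or library 1 of both. *Pf4* was also not called without G-NHA9Midi library 1 or 5 or G-NHA9-8FA library 4, nor *Vwf* without G-NHA9Midi library 4 or G-NHA9-8FA library 1. The 2 calls were 14.3% of the list, against 4.25% of all genes. Point estimates were lower for 13 of the 14, with a median of -0.84. The sum of the list had the higher median in G-NHA9Midi cells (5466 against 4400 CPM), with overlapping ranges of 4463 to 6516 CPM in G-NHA9Midi and 3817 to 5417 CPM in G-NHA9-8FA cells, and most of it was *Thbs1*, the adhesive glycoprotein thrombospondin-1, which is named here after its values were seen (4059.6 to 6304 CPM in G-NHA9Midi cells and 3265 to 4905 CPM in G-NHA9-8FA cells; log2 fold change, 0.39 ± 0.27 (SE), edgeR adjusted p = 0.54).

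Of 23 erythroid genes, 1 was higher and 1 lower, 8.7% called against 4.25% of all genes. *Car2*, carbonic anhydrase of red cells and other lineages, was at 72.1, 212, 141, 114 and 178 CPM in the G-NHA9Midi libraries and at 37.03, 43.6, 40.7, 73.6 and 53.5 CPM in the G-NHA9-8FA libraries. G-NHA9Midi libraries were higher, with a small overlap (log2 fold change, 1.53 ± 0.30 (SE), edgeR adjusted p = 0.0016). *Epor*, the erythropoietin receptor, was lower (-1.02). The call of *Epor* was lost without G-NHA9Midi library 1, 2 or 3 or G-NHA9-8FA library 2, 3 or 4, and *Car2* kept its call in all 10 fits that left out 1 library. None of 10 erythroid transcription factors was called by edgeR or DESeq2, and 1 had an unadjusted p under 0.05. For heme synthesis the counts were 0 of 11 by both tools, and 0 with an unadjusted p under 0.05.

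**Figure D4:**
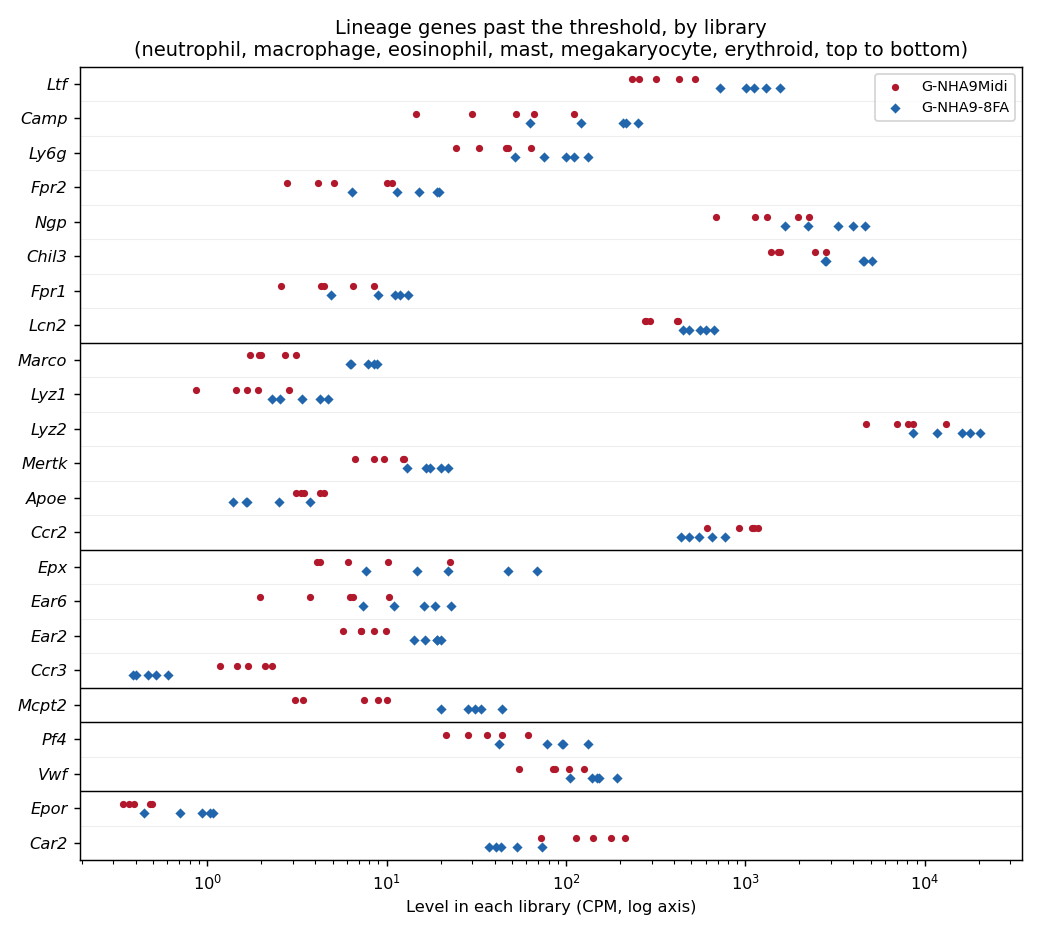
Each point is the level (CPM, log axis) in 1 library of G-NHA9Midi (red circles) or G-NHA9-8FA (blue diamonds) cells of each lineage gene past the threshold, grouped by lines into late neutrophil, macrophage and monocyte, eosinophil, mast cell, megakaryocyte and erythroid genes. Most G-NHA9Midi libraries are lower in the upper groups, with *Ccr2*, *Apoe*, *Ccr3* and *Car2* as the exceptions.

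Among other immune genes few were called in each list, and the counts are to be read beside the 4.25% of all genes called. *H2-Ob* (ENSMUSG00000041538.15, GRCm38 chromosome 17, 34238903 to 34254414, + strand), the beta chain of the MHC class II regulator H2-O, was at 101, 118, 111, 113 and 117 CPM in the G-NHA9Midi libraries and at 40.8, 56.8, 51.1, 50.2 and 48.4 CPM in the G-NHA9-8FA libraries. It was about 2-fold higher with no overlap (log2 fold change, 1.18 ± 0.19 (SE), edgeR adjusted p = 0.00019), and at 12.6 ± 2.37 CPM with the empty vector and 66.6 ± 14.6 CPM with G-NHA9. In the same list of 17 MHC class II and dendritic cell genes, *Clec9a*, a receptor of cross-presenting dendritic cells, was lower (log2 fold change, -1.09 ± 0.24 (SE), edgeR adjusted p = 0.0052) and the other 15 were not called. Of 13 CC chemokines, *Ccl24* was higher and *Ccl6* lower (log2 fold change, -0.70 ± 0.17 (SE), edgeR adjusted p = 0.012). Of 6 lymphoid genes, *Il7r*, the receptor of interleukin-7, was lower (log2 fold change, -0.81 ± 0.24 (SE), edgeR adjusted p = 0.043). Interferon-stimulated genes numbered 0 called of 25 by edgeR and by DESeq2, with 3 at an unadjusted p under 0.05. Their point estimates were lower for 22 of the 25, with a median log2 fold change of -0.4. Those of the CC chemokines were lower for 11 of the 13 (median, -0.42). For the MHC class II and dendritic cell genes it was 12 of the 17 (-0.21), and for the lymphoid genes 4 of the 6 (-0.19).

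Among receptors and regulators of myeloid growth, *Epor* and *Il7r* were the 2 called of 12 growth factor receptors, and *Irf4* (-0.43), which drives lymphoid and dendritic fates, the 1 called of 18 myeloid transcription factors, all lower. *Socs2*, a feedback inhibitor induced by STAT5, was at 42.1 to 49.1 CPM in G-NHA9Midi cells and 25.6 to 38.9 CPM in G-NHA9-8FA cells (log2 fold change, 0.46 ± 0.10 (SE), edgeR adjusted p = 0.0031) and was the 1 called of 14 STAT5 and cytokine targets. In the BCL2 family, the proapoptotic *Bid* was higher (0.34) and the proapoptotic *Bcl2l11*, which encodes BIM, lower (-0.48), of 17 tested. *Cdkn1c*, an inhibitor of cyclin-dependent kinases, was the 1 called of 17 cyclins and inhibitors of G1 (log2 fold change, -1.39 ± 0.39 (SE), edgeR adjusted p = 0.031). Of 14 integrins and selectins, *Itga6* was higher (0.61) and *Selplg*, the ligand of P-selectin, lower (-0.31). *Sc5d* was the 1 called of 24 sterol synthesis genes (-0.33). The counts of all these lists are to be read beside the 4.25% of all genes called. Calls were lost in 7 of the 10 fits that left out 1 library for *Irf4* and *Bcl2l11*, in 6 for *Epor*, *Il7r*, *Cdkn1c* and *Selplg*, in 2 for *Bid* and *Itga6* and in none for *Socs2* and *Sc5d*.

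Genes of ribosome assembly were higher in 5 of the 39 tested and lower in none, against 1.51% of all genes higher. The median log2 fold change was 0.34, all 39 point estimates were above 0, and 14 did not overlap between conditions, against 5.25% of all genes. *Nop56*, a core protein of box C/D ribonucleoproteins, was at 138, 126, 138, 114 and 109 CPM in the G-NHA9Midi libraries and at 98.8, 77.3, 82.6, 94.3 and 93.5 CPM in the G-NHA9-8FA libraries. All G-NHA9Midi libraries were higher (log2 fold change, 0.49 ± 0.14 (SE), edgeR adjusted p = 0.039). *Gar1*, of box H/ACA ribonucleoproteins (0.61), *Tsr1*, a factor of small subunit maturation (0.52), *Ddx21*, a nucleolar helicase (0.44), and *Utp14a*, of the small subunit processome (0.31), were the others. No call was made without G-NHA9Midi library 2 or 3, G-NHA9-8FA library 2 or 4, or library 1 of both conditions, 1 was made without G-NHA9Midi library 1, 2 without G-NHA9-8FA library 1, 3 without G-NHA9-8FA library 3, and 8 without G-NHA9Midi library 4. With library sizes in place of TMM, 13 were called. *Snhg17*, a host gene of small nucleolar RNAs, was at 27.7, 29.6, 31.7, 28.2 and 25.3 CPM in the G-NHA9Midi libraries and at 16.2, 18.7, 19.1, 20.3 and 18.4 CPM in the G-NHA9-8FA libraries. It was higher without overlap (log2 fold change, 0.62 ± 0.10 (SE), edgeR adjusted p = 0.00018) and was the 1 called of 14 such host genes, against 4.25% of all genes.

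The protein-making and dividing machinery itself was not called. Of 79 cytosolic ribosomal protein genes, 0 were called by edgeR or DESeq2 and 1 had an unadjusted p under 0.05, with a median log2 fold change of 0.08. *Rps12* and *Rpl12* differed by 0.03 ± 0.11 and 0.18 ± 0.12 (SE). Of 43 translation factors, 0 were called by edgeR and 1 by DESeq2, with 6 at an unadjusted p under 0.05. For the 35 genes of DNA replication these counts were 0, 1 and 1, and for the 31 of mitosis 0, 0 and 0. Point estimates were higher for 70 of the 79 ribosomal protein genes, 39 of the 43 translation factors (median, 0.14), 33 of the 35 replication genes (0.1) and 29 of the 31 mitosis genes (0.08). The absence of calls does not show equal levels.

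The same 3 counts (edgeR, DESeq2, unadjusted p under 0.05) were 0, 2 and 5 for 24 stem and leukemia transcription factors, 0, 3 and 4 for 16 stem and progenitor surface markers, 0, 0 and 4 for 28 nucleoporins and transport receptors, and 0, 2 and 3 for 35 MLL, Polycomb and acetyltransferase regulators. *Flt3*, a cytokine receptor of early progenitors, was at 1.26 to 2.78 CPM in G-NHA9Midi cells and 1.13 to 2.07 CPM in G-NHA9-8FA cells (log2 fold change, 0.51 ± 0.25 (SE), edgeR adjusted p = 0.3). The 3 counts were 0, 1 and 3 for 18 p53 targets, 0, 0 and 2 for 23 genes of serine and one-carbon metabolism, 0, 0 and 1 for 22 of glycolysis, 0, 0 and 1 for 13 genes of mitochondrial DNA, and 0, 0 and 0 for 5 sex-linked genes. Point estimates were higher for 27 of the 28 nucleoporins and transport receptors (median, 0.12) and 19 of the 23 serine and one-carbon genes (0.26). They were lower for 12 of the 13 genes of mitochondrial DNA (-0.34).

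**Figure D5:**
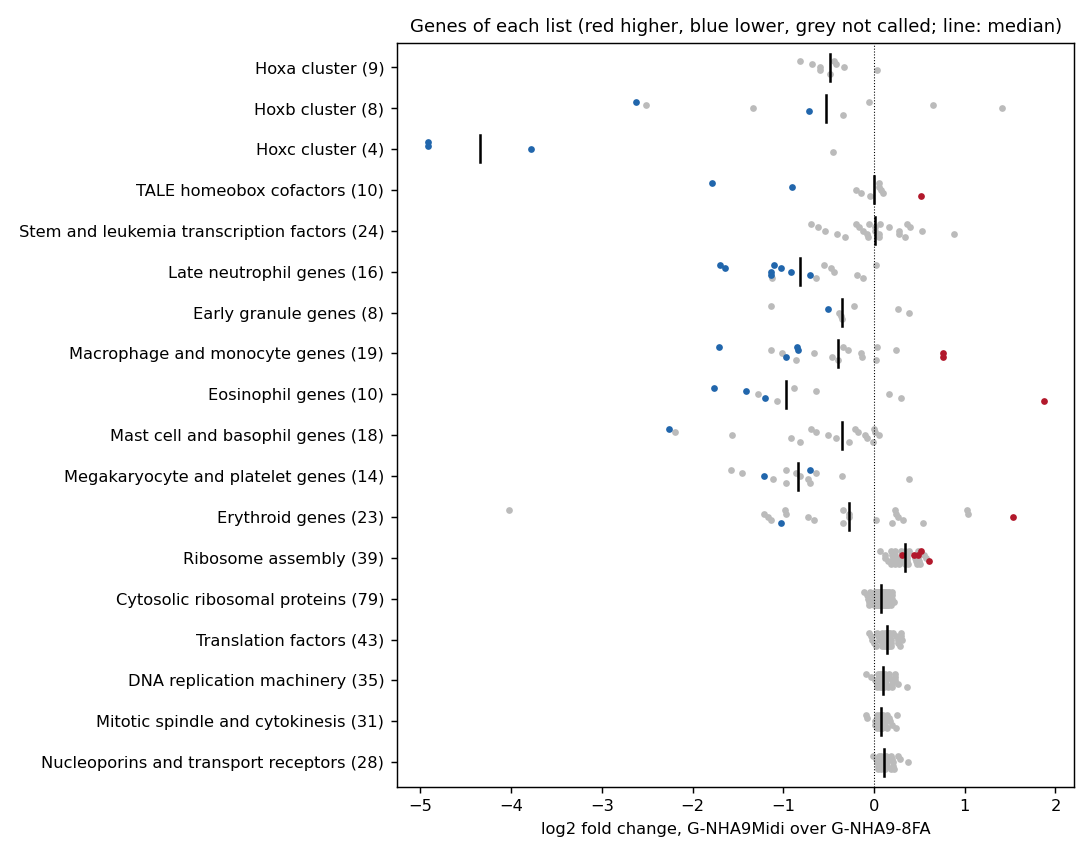
Each point is 1 tested gene of a list (number tested in parentheses), placed at its log2 fold change, G-NHA9Midi over G-NHA9-8FA, in red where called higher, blue where called lower and grey where not called, and the black line is the median of the list. The *Hoxc* median is at -4.34 and that of late neutrophil genes at -0.82, while ribosomal protein genes gather around 0.08.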

How the data were processed

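RNA-seq was done on lin- HSPC cultures, 5 libraries for each of 7 conditions. The authors deposited unnormalized read counts for 49671 genes. The submitters' processing notes name STAR 2.7.0d, HTSeq 0.11.2, DESeq2 and mm10, with no role or order, and how reads that fit several genes were counted is not given in the sources used here. Gene positions came from GENCODE M21 (GRCm38), and promoter sequences from RefSeq.

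The analysis used edgeR 4.0.16 and limma 3.58.1 (R 4.3.3). Genes were filtered by filterByExpr with the conditions as groups (17166 genes, 99.96% of counts), scaling used TMM factors, and the quasi-likelihood fit took in all 35 libraries with 1 coefficient a condition, so the 25 other libraries added to the estimate of the spread. The contrast was tested two-sided with Benjamini-Hochberg adjustment over all genes tested and a threshold of 0.05. The SE is the absolute log2 fold change fitted without a prior count, divided by the square root of F. The log2 fold changes printed include the prior count, so for genes with few reads the SE only approximates theirs. Depth was 32201151 to 58576267 counts per library. Genes named were the 12 largest increases and the 12 largest decreases among called genes averaging 5 CPM or more, with no overlap between conditions and no predicted-model symbol, the Hox genes tested, called members of 41 gene lists with up to 4 others by p, and *Hoxa9*, *Nup98*, *Meis1*, *Pbx3*, *Flt3*, *Rps12* and *Rpl12*. The comparison, its members and the lists were chosen with earlier results of these data known. A gene in each of 2 lists is not reported here and was left out of the list's counts. The procedure was tested on simulated data.

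Alternatives were other scalings and filters, the 10 libraries alone, the replicate number as a block, a sex-linked score as covariate, DESeq2 1.42.0, a minimum log2 fold change of 1 and leaving out each library. Leaving out library 1 of both conditions was added after seeing the data. Figures were drawn with matplotlib.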

Additional observations from a re-analysis of the deposited data

Results flagged for a closer look

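In 7 of 212 groups of 5 libraries (3.3%), 1 library's level of a gene stood apart from the other 4 by Dixon's test (critical value, 0.71), where chance gives about 1 in 20. The groups covered most genes named in the text. *Azgp1* was at 3.64 CPM in G-NHA9-8FA library 5 against 0.839 to 1.49 CPM in the others. *Nup98* was at 198 CPM in the same library against 146 to 159 CPM, and *Itga6* at 143 CPM there against 103 to 114 CPM. In G-NHA9-8FA library 4, *Hoxc8* was at 0.437 CPM against 0.0611 to 0.165 CPM and *Mgam* at 3.70 CPM against 6.76 to 7.44 CPM. *Chil4* was at 315 CPM in G-NHA9Midi library 4 against 193 to 213 CPM, and *Igsf6* at 130 CPM in G-NHA9Midi library 2 against 111 to 117 CPM. *Azgp1*, *Mgam* and *Chil4* kept their calls when any 1 library was left out.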

How the results depend on the processing

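The number of changed genes, 729, was 737 with RLE size factors, 733 with a filter at 1 CPM, 992 without TMM, 531 without a filter, 496 with the 10 libraries alone and 1029 with DESeq2. It was 1314 with the replicate number as a block, 1192 with the sex-linked score as covariate and 290 with a minimum change. Leaving out 1 library gave 379 to 894. Without library 1 of both conditions it was 466, of which 451 were among the 729 with the same direction. The share of higher genes was 35.5%, 59.1% without TMM and 47.6% with the 10 libraries alone, of whose calls 388 were among the 729. The causes were not tested. The deviations of same-numbered libraries correlated at 0.561, -0.111, 0.208, 0.101 and 0.379. Their mean was 0.228, against -0.056 for libraries with different numbers, and 2 of the 5 G-NHA9Midi libraries did not correlate best with their own number. The main fit left the replicate number out, and whether same-numbered libraries were prepared together was not tested. With the block 727 of the 729 genes were called in the same direction.

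Among the genes named in the text and the alternatives run, the log2 fold change turned sign only for genes that were not called. *Hoxa9* was at 0.00 with the block, -0.08 with the sex-linked score, and -0.07 (without G-NHA9Midi library 2) to 0.15 (without G-NHA9-8FA library 5) with 1 library left out. *Meis1* was at -0.03 (without G-NHA9Midi library 4) to 0.20 with 1 library left out and at -0.02 without library 1 of both conditions. *Rps12* was at 0.00 with the score and at 0.00 to 0.10 with 1 library left out, and *Hoxc8* at -0.65 to 0.18 (without G-NHA9-8FA library 4). Of 89 called genes named in the text, 88 were called by DESeq2, 89 with RLE size factors, 81 without TMM, 74 without a filter, 59 of 88 with the 10 libraries alone and 59 without library 1 of both conditions. With 1 library left out, 52 (without G-NHA9Midi library 2) to 82 (without G-NHA9Midi library 4) were called, with 53 without G-NHA9Midi library 3 and 57 without G-NHA9-8FA library 2. Genes at a few reads, such as *Hoxc5* and *Hoxb5*, are limited by depth, and genes with close relatives or overlapping neighbors by how reads were assigned.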

Other observations

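The genes in this paragraph were chosen after their values were seen, so their counts are descriptions, to be read beside the 2.74% of all genes that were lower and the 1.51% that were higher. Of the 5 TAM receptors and ligands, through which phagocytes take up dying cells, 4 were lower in G-NHA9Midi cells: the ligands *Gas6* (log2 fold change, -1.24 ± 0.26 (SE), edgeR adjusted p = 0.0037) and *Pros1* (-0.96) and the receptors *Axl* (62.1 ± 13.8 against 105 ± 13.5 CPM, SD, n = 5; log2 fold change, -0.76 ± 0.18 (SE), edgeR adjusted p = 0.01) and *Mertk*, whereas *Tyro3* was not called (log2 fold change, 0.41, edgeR adjusted p = 0.073). *Pparg* and *Nr1h3*, nuclear receptors for lipids in macrophages, were the 2 called of 6 tested of their kind, both lower without overlap. *Pparg* was at 17.8, 12.2, 14.9, 18.8 and 13.8 CPM in the G-NHA9Midi libraries and at 40.7, 23.96, 30.4, 32.3 and 30.4 CPM in the G-NHA9-8FA libraries (log2 fold change, -1.02 ± 0.17 (SE), edgeR adjusted p = 0.00019), and *Nr1h3*, which encodes LXR alpha, at 2.49 to 6.2 CPM in G-NHA9Midi cells and 6.66 to 16.2 CPM in G-NHA9-8FA cells (log2 fold change, -1.11 ± 0.26 (SE), edgeR adjusted p = 0.0095). Of 12 Toll-like receptors, 3 were lower, *Tlr6* (-0.49), *Tlr7* (-0.74) and *Tlr8* (-0.78), the last 2 being sensors of RNA in endosomes. Of 23 targets of the oxidative stress regulator NRF2, 8 were lower and none higher, with *Nqo1* (log2 fold change, -0.94 ± 0.17 (SE), edgeR adjusted p = 0.00058) and *Hmox1* (log2 fold change, -0.73 ± 0.19 (SE), edgeR adjusted p = 0.024), a quinone reductase and the heme-degrading enzyme, among them, and 2 of 3 metallothioneins, *Mt1* (-0.77) and *Mt2* (-1.03), metal-binding proteins, were lower. In the 10 fits that left out 1 library, calls were lost in 6 for *Tlr7*, in 5 for *Tlr6* and *Tlr8*, in 3 for *Pros1* and *Hmox1*, in 1 for *Axl* and in none for *Gas6*, *Mertk*, *Pparg*, *Nr1h3*, *Nqo1*, *Mt1* and *Mt2*.

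In the TGF-beta and BMP pathways, 4 of 28 genes tested were higher and 2 lower (against 1.51% and 2.74% of all genes), also chosen after values were seen. Besides the ligand *Tgfb2*, the higher ones were *Bmpr1a* (log2 fold change, 0.70 ± 0.15 (SE), edgeR adjusted p = 0.0042), a BMP receptor, *Bambi* (log2 fold change, 0.87 ± 0.23 (SE), edgeR adjusted p = 0.025), a decoy receptor, and *Fst* (log2 fold change, 1.72 ± 0.44 (SE), edgeR adjusted p = 0.018), the activin-binding follistatin. Lower were *Tgfbr2*, the receptor that binds TGF-beta, at 46.4 to 68.97 CPM in G-NHA9Midi cells and 73.2 to 103 CPM in G-NHA9-8FA cells (log2 fold change, -0.62 ± 0.12 (SE), edgeR adjusted p = 0.0011), and *Fstl1*. Calls were lost in 5 of the 10 such fits for *Bambi*, in 3 for *Fst* and in none for *Tgfb2*, *Bmpr1a*, *Tgfbr2* and *Fstl1*.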
